A study of Rattus norvegicus with 6 samples.

Results

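The genes described here are Fkbp5 and a small set of other genes that glucocorticoids are known to induce, together with their receptor, in nuclei of the rat colon. The set held 7 genes, Fkbp5, Sgk1, Tsc22d3, Per1, Nr3c1, Klf9 and Zbtb16, and 6 of them had a row among the 17388 genes of the count tables. Nr3c1, the glucocorticoid receptor itself, had none and was not analysed here. Fkbp5 entered the set because its level against placebo was among the strongest falls in enterocytes, so its differences from placebo in those nuclei are given as a description, with no test.

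Single nuclei RNA sequencing was performed on flash-frozen colon of 9 male Wistar rats labelled Wildtype, 3 in each of 3 groups. In the placebo and PL8177 groups the drinking water held 5% dextran sulfate sodium (DSS), an agent that injures the colon epithelium, for 3 days, and plain water followed for 5 days. These rats were gavaged 2 times a day, 6 hours apart, on 4 of those days, with empty vehicle capsules or with 50 µg of PL8177, an agonist of the melanocortin 1 receptor. Sham rats drank water without DSS and are listed with 0 days of capsules. Sham against placebo thus differs in DSS and in gavage, which cannot be told apart. The analysis covered the nuclei that the authors had assigned to enterocytes and to T cells.

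Glucocorticoids enter cells and bind a receptor that is held by HSP90 and its co-chaperones. The bound receptor moves to the nucleus and raises the transcription of target genes, among them brakes on its own signal and on inflammation. In the gut, steroids are a standard treatment of colitis, the epithelium can make them locally, and corticosteroid signals also set sodium uptake by surface colonocytes.

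Promoter sequences from RefSeq were matched by symbol for 5 of the 6 measured genes, in 9 windows of 250 bases before an annotated start, on build GRCr8. The counts were made on another build, Rnor 6.0. The windows of Fkbp5 and of 1 of the 3 starts of Sgk1 are shown, because these were the genes whose level was lower in each PL8177 rat than in each placebo rat. The Fkbp5 window is chr20:6543556-6543805 on the minus strand, and the Sgk1 window is chr1:24804832-24805081 on the minus strand. Capitals mark the TATA motif TATAAA, which ended 27 bases before that Sgk1 start.
Fkbp5: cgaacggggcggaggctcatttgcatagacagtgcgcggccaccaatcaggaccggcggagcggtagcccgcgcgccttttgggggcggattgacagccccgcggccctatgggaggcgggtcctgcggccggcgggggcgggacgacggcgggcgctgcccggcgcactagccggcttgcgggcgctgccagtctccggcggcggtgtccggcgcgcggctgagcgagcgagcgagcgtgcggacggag
Sgk1: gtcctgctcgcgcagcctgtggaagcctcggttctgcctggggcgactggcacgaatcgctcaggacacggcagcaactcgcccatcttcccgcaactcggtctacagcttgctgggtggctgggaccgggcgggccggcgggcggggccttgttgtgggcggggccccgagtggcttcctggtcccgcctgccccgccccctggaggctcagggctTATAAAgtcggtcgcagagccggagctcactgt
Both windows are rich in G and C, which made up 76% of the Fkbp5 letters and 69.6% of the Sgk1 letters. On either strand, 0 of the 9 windows held the receptor's palindromic motif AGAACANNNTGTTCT, its looser form GNACANNNTGTNC, the single hexamer AGAACA or the cAMP response motif TGACGTCA. Every match to the palindrome is also a match to the looser form and to the hexamer. Of all 33469 windows of the same length, 0.012% held the palindrome, 0.373% the looser form, 17.5% the hexamer and 1.59% the cAMP motif. TATAAA was in 3 of the 9 windows, 2 of Sgk1 and 1 of Tsc22d3, and in 12.9% of all windows. Absence of these letters from a window says nothing about sites elsewhere.

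The tables held 8782 enterocyte nuclei and 1018 T cell nuclei. Counts were of unique molecular identifiers (UMIs), which tag single captured RNA molecules, and levels are given as UMIs per 10000 UMIs of all genes in the same nuclei. The rat of a nucleus was read from the tag in its name, since the labels do not list the rats. Enterocyte totals per rat ran from 319125 to 4123319 UMIs and T cell totals from 8070 to 779009. No nucleus name occurred in both cell types of a rat, and 10 barcodes occurred in more than 1 rat. Enterocyte markers summed to 162 to 411 per 10000 in the enterocyte nuclei and T cell markers to 0.16 to 0.85, and all 15 genes of the enterocyte list had a row. In T cell nuclei, T cell markers summed to 25.5 to 58.4 in 8 rats and enterocyte markers to 18.2 to 91.9, the latter exceeding the former in the 3 PL8177 rats and in sham rats GR13 and GR15. In the placebo rat GR23 the T cell markers were at 2.2 and the enterocyte markers at 230.2 per 10000. That rat gave 685 of the 1018 T cell nuclei, and T cell values that rest on it are also given without it. Because introns were counted and gene lengths differ, levels are compared between samples and not between genes.

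Fkbp5 encodes an immunophilin that sits with HSP90 on the glucocorticoid receptor and lowers its affinity for hormone. In enterocytes its level was 0.072, 0.089 and 0.040 per 10000 in sham rats GR12, GR13 and GR15, on 23, 4 and 2 UMIs. In placebo rats GR22, GR23 and GR24 it was 0.443, 0.595 and 0.509, on 175, 19 and 90 UMIs. Under PL8177 the rats GR41, GR43 and GR44 were at 0.134, 0.131 and 0.052, on 24, 54 and 4 UMIs. Each placebo rat thus lay above the other 6 rats, while sham and PL8177 rats overlapped.

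Group means of Fkbp5 were 0.0672 ± 0.0247 in sham, 0.516 ± 0.0766 in placebo and 0.106 ± 0.0466 in PL8177 (SD, n = 3 rats each). They rested on 29, 284 and 82 UMIs. The ratio to placebo was 0.13 for sham and 0.205 for PL8177. On the log2 scale of edgeR, with its standard error, Fkbp5 differed from placebo by -2.74 (SE 0.40) in sham and by -2.01 (SE 0.35) in PL8177. Ranked by fold change from the most negative, it stood at place 5 and place 25 of 9424 genes. Both comparisons share the placebo rats. They also led to the choice of the gene, so its fold changes and standard errors are not to be read as a test.

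PL8177 against sham was not itself used to choose Fkbp5, but the choice took low levels against placebo in both groups. Its tests are therefore not independent of that choice. The log2 fold change was 0.73 (SE 0.42), with a 95% interval from -0.17 to 1.64 and an adjusted p of 0.772 in edgeR. An exact two-sided permutation test of the levels, 3 rats against 3, gave p = 0.3, where 0.1 is the smallest such a test can reach. The data thus did not separate PL8177 from sham for this gene, and the interval still allows a level about as low as sham or well above it. No likeness of these groups is concluded, since low levels in both led to the choice of the gene.

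The share of enterocyte nuclei with at least 1 Fkbp5 UMI was 1.06% in sham (exact Clopper-Pearson 95% interval 0.69% to 1.54%), 7.98% in placebo (7.02% to 9.01%) and 2.17% in PL8177 (1.71% to 2.73%). These intervals cover counting error only. Of the 26 sham nuclei with a UMI 20 were from GR12, the deepest sham library, and without it the sham share was 0.391% (0.144% to 0.849%). After each nucleus was thinned to 300 UMIs, the shares were 0.181%, 1.79% and 0.254%, in the same order, with 252, 103 and 207 nuclei left out as too shallow. Of the 236 placebo nuclei with a UMI, 202 had exactly 1 and the highest count in a nucleus was 4, so the gene was sparse throughout. In T cell nuclei the shares were 14.2% in sham (8.47% to 21.7%), 2.99% in placebo (1.93% to 4.42%) and 3.12% in PL8177 (0.649% to 8.86%), of 120, 802 and 96 nuclei. GR12 held 16 of the 17 sham nuclei with a UMI, and without it the sham share was 2.17% (0.055% to 11.5%), while without GR23 the placebo share was 5.13% (1.90% to 10.8%). No nuclei known to lack Fkbp5 were at hand to measure free RNA.

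**Figure D1:**
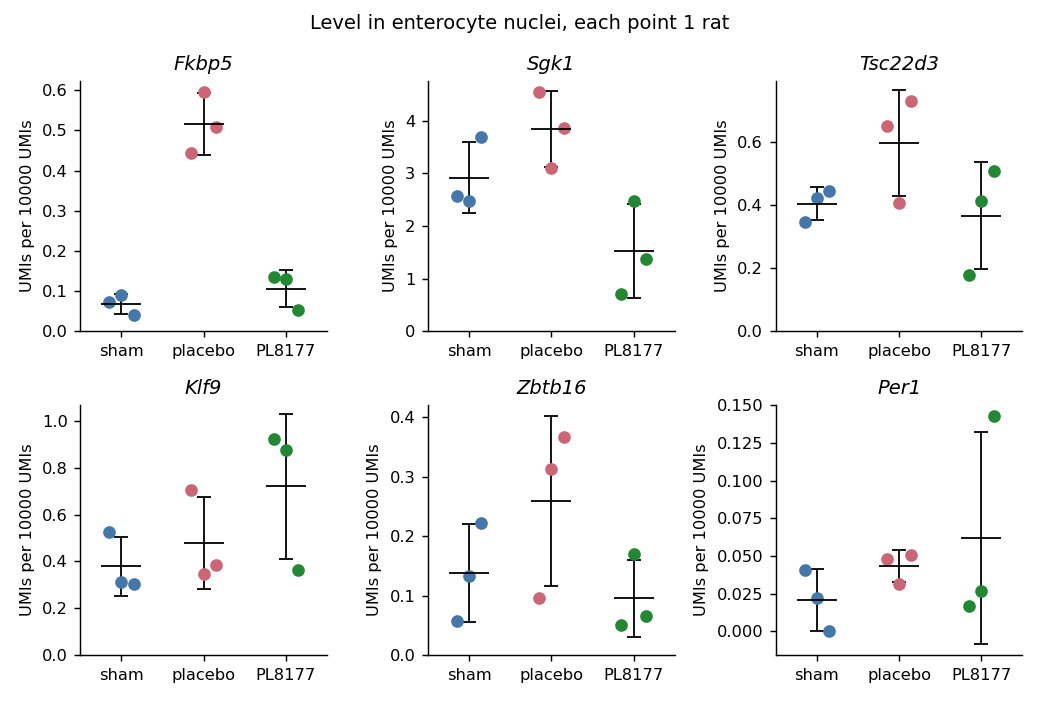
Levels of the 6 measured genes in enterocyte nuclei (y axis, UMIs per 10000 UMIs) by treatment (x axis); each point is 1 rat, and the bars are the mean ± SD of 3 rats. For Fkbp5 the placebo rats, at 0.443 to 0.595, stand apart from all others, and for Sgk1 the PL8177 rats, at 0.699 to 2.469, lie below both other groups.

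Markers moved with these groups in part. The surface list used further on overlapped between the groups, at 117.9 to 191.5 per 10000 in sham, 99.0 to 165.4 in placebo and 140.9 to 175.5 in PL8177. The summed level of a second list of surface colonocyte markers (Krt20, Aqp8, Clca4, Ceacam1, Plac8 and Muc13) was 110.0 to 220.1 per 10000 in sham, 52.1 to 67.8 in placebo and 103.0 to 115.9 in PL8177. T cell markers in the enterocyte nuclei were 0.27 to 0.52 in sham, 0.40 to 0.85 in placebo and 0.16 to 0.36 in PL8177. All 6 genes of that second list are among those the study selected on these samples, so its movement is not independent. The part of these markers in the Fkbp5 difference was not tested.

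Sgk1 encodes a kinase that raises epithelial sodium uptake, in part by keeping the ubiquitin ligase Nedd4l away from the sodium channel. Its enterocyte level was 2.576, 2.472 and 3.694 per 10000 in sham rats and 4.546, 3.102 and 3.850 in placebo rats. In PL8177 rats it was 0.699, 2.469 and 1.377. Every PL8177 rat was below every rat of the other groups, although rat GR43 at 2.469 and sham rat GR13 at 2.472 all but touched.

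The means of Sgk1 were 2.91 ± 0.677 in sham, 3.83 ± 0.722 in placebo and 1.52 ± 0.893 in PL8177 (SD, n = 3). The log2 fold change of PL8177 was -1.18 (SE 0.37) against placebo and -0.92 (SE 0.37) against sham. Neither passed correction over all genes, with adjusted p values of 0.373 and 0.733 in edgeR, and 0.12 and 0.596 in DESeq2. The exact permutation p was 0.1 for each, the smallest possible. Sham differed from placebo by -0.26 (SE 0.37, adjusted p = 0.802 in edgeR), a difference within the spread of the rats.

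Counts of genes past the threshold give the scale for this. With edgeR, where a call needed an adjusted p under 0.05 and a log2 fold change of over 0.5 in size, 0 of 9424 enterocyte genes (0%) were called in any of the 3 comparisons. At an unadjusted p below 0.05 there were 1172 for sham against placebo, 871 for PL8177 against placebo and 621 for PL8177 against sham. DESeq2 at the same limits called 107 (1.14%), 50 (0.531%) and 4 (0.0424%). None of Sgk1, Tsc22d3, Klf9 and Zbtb16 was called by either tool, and DESeq2 gave Zbtb16 no adjusted p against placebo. Of all genes tested, 14.3% were lower and 5.36% higher in every sham than in every placebo rat, and 14.1% were lower and 4.7% higher in every PL8177 than in every placebo rat. Between PL8177 and sham, 6.01% were lower and 6.02% higher in every rat. Of the 5 members tested, Fkbp5 was lower in every sham rat than in every placebo rat, Fkbp5 and Sgk1 were lower in every PL8177 rat than in every placebo rat, and Sgk1 was lower in every PL8177 rat than in every sham rat.

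Tsc22d3 encodes GILZ, a leucine zipper protein through which glucocorticoids restrain inflammatory transcription factors. Sham rats were at 0.346, 0.423 and 0.444 per 10000, placebo rats at 0.650, 0.407 and 0.729, and PL8177 rats at 0.179, 0.412 and 0.507. The groups overlapped through placebo rat GR23, which had the fewest enterocyte UMIs in total. Against placebo the log2 fold change was -0.50 (SE 0.39) in sham and -0.62 (SE 0.37) in PL8177, with adjusted p values of 0.61 and 0.651 in edgeR. PL8177 against sham gave -0.12 (SE 0.39, adjusted p = 0.981 in edgeR).

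Klf9 encodes a zinc finger transcription factor. Sham rats had levels of 0.525, 0.312 and 0.303, placebo rats of 0.706, 0.345 and 0.384, and PL8177 rats of 0.923, 0.878 and 0.364. Its mean was highest under PL8177, with log2 fold changes of 0.69 (SE 0.37) against placebo and 0.89 (SE 0.38) against sham. Rat GR44 lay within the range of the other groups, and the adjusted p values were 0.61 and 0.747 in edgeR.

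Zbtb16 encodes PLZF, a transcription factor best known from innate-like T cells. Levels of 0.057, 0.134 and 0.222 were measured in the sham rats, against 0.096, 0.313 and 0.367 in the placebo rats and 0.050, 0.170 and 0.065 in the PL8177 rats. The groups overlapped, and the log2 fold changes of -0.93 (SE 0.70) in sham and -1.09 (SE 0.63) in PL8177 against placebo had adjusted p values of 0.592 and 0.636 in edgeR. Leaving out single rats moved them between -1.47 and -0.27 and between -1.95 and -0.51.

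Per1, a repressor of the circadian clock, was too sparse for the filter on low counts. The sham rats were at 0.041, 0.022 and 0 on 14 UMIs, the placebo rats at 0.048, 0.031 and 0.051 on 29 UMIs, and the PL8177 rats at 0.017, 0.027 and 0.143 on 25 UMIs. The exact permutation p values of its 3 comparisons lay between 0.2 and 1. Thus 5 of the 6 measured members passed the filter, and the order of their group means differed. PL8177 had the lowest mean of Sgk1, Tsc22d3 and Zbtb16, and sham that of Fkbp5, Klf9 and Per1. Placebo had the highest mean of Fkbp5, Sgk1, Tsc22d3 and Zbtb16, and PL8177 that of Klf9 and Per1. The Per1 mean of PL8177 was raised by GR44, on 11 UMIs. Pooled over rats, Per1 was at 0.0374 in PL8177 and 0.0480 in placebo.

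**Figure D2:**
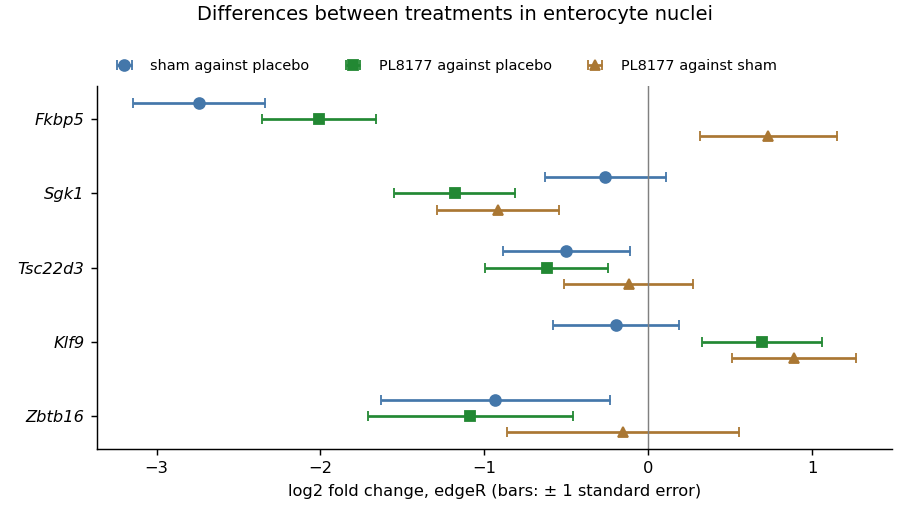
Log2 fold changes (x axis) of the 5 members tested in enterocyte nuclei (y axis), from edgeR with 3 rats a group; symbols mark the 3 comparisons and bars are ± 1 standard error. Fkbp5 lies at -2.74 and -2.01 against placebo, and the other members lie between -1.18 and 0.89. Fkbp5 was chosen on its differences from placebo, so its bars there are no test.

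The other genes of the receptor pathway were read from lists of named genes. Of 5 tested genes for receptors and steroid handling, 3 had a higher and 2 a lower log2 fold change in sham than in placebo, and 0 were called by edgeR or DESeq2. Nr3c2, the mineralocorticoid receptor, was at 44.5 ± 14.3, 49.1 ± 3.97 and 49.7 ± 11.3 per 10000 in sham, placebo and PL8177 (SD, n = 3), with log2 fold changes of 0.00 and 0.18 against placebo. Hsd11b2, the enzyme that inactivates glucocorticoids and so shields that receptor, was at 0.147 ± 0.0609, 0.266 ± 0.157 and 0.189 ± 0.0797 in the same order. Neither gene was called in a comparison of treatments by edgeR or DESeq2.

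Among 15 tested chaperones and immunophilins, 11 had a lower fold change in sham and 10 in PL8177 than in placebo, with 0 called, while 51.7% and 51.3% of all genes tested were lower. Fkbp4, the immunophilin that takes the place of Fkbp5 on the receptor when hormone binds, was at 0.106 ± 0.0836, 0.105 ± 0.0367 and 0.125 ± 0.072 in sham, placebo and PL8177 (SD, n = 3). Its log2 fold changes against placebo were -0.10 and 0.15. The fold changes of Hsp90ab1, an HSP90 gene, were -0.41 (SE 0.32) and -0.73 (SE 0.32), also without a call.

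None of the 11 tested coregulators, such as Ncor1, Nrip1 and Crebbp, was called. Of 20 other glucocorticoid-induced targets tested, 10 were higher and 10 lower in sham than in placebo, and 14 were higher and 6 lower in PL8177. Their median log2 fold changes were -0.01 and 0.13, beside -0.02 and -0.01 over all genes. DESeq2 called 1 of them, Dusp1, which encodes a phosphatase of MAP kinases, at -1.70 in sham against placebo (adjusted p = 0.0472 in DESeq2 and 0.207 in edgeR). Dusp1 averaged 0.202 ± 0.112 per 10000 in sham, 0.758 ± 0.507 in placebo and 0.809 ± 0.172 in PL8177, and the placebo rats spread from 0.345 to 1.32. The PL8177 minus sham difference was 1.85 (SE 0.47, adjusted p = 0.733 in edgeR).

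Of 12 tested clock genes, 4 were lower in sham and 2 in PL8177 than in placebo, beside 51.7% and 51.3% of all genes. Cry2, a clock repressor, was called by DESeq2 in sham against placebo at 1.18 (adjusted p = 0.0376 in DESeq2 and 0.195 in edgeR). Sham rats averaged 1.25 ± 0.211, placebo rats 0.586 ± 0.227 and PL8177 rats 1.13 ± 0.116 (SD, n = 3). Of 12 tested kinases and partners around Sgk1, 9 were lower in sham and 5 in PL8177 than in placebo, and 0 were called. Nedd4l, a ligase that Sgk1 restrains, was at 14.2 ± 2.52, 12.8 ± 1.53 and 14.7 ± 3.84.

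Enterocyte nuclei were then placed by the UMIs of a surface and a crypt marker list. A nucleus with at least 3 UMIs of the 2 marker lists was called surface-leaning where surface genes such as Slc26a3, Guca2a and Car4 gave 66.7% or more of these UMIs, and crypt-leaning where they gave 33.3% or less. These are ranges and not cell types, and the lists hold no member. There were 6418 surface-leaning, 504 intermediate and 324 crypt-leaning nuclei, and 1536 with too few UMIs. Of these, 783, 302 and 213 lay near a limit. Crypt-leaning nuclei of a rat held 3651 to 122406 UMIs, so a single UMI weighed heavily in the shallow rats.

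Sgk1 and Tsc22d3 had higher mean levels in surface-leaning than in crypt-leaning nuclei. Sgk1 averaged 3.20 per 10000 in surface-leaning and 0.705 in crypt-leaning nuclei over 9 rats, on 4773 and 14 UMIs. It was higher in the surface-leaning range in 8 of 9 rats, and the exception, GR13, rested on 1 crypt-leaning UMI. Tsc22d3 averaged 0.515 and 0.0351, on 752 and 2 UMIs, and was higher in 9 of 9 rats. Rats GR12 and GR24 held 1 crypt-leaning UMI each, and the others had none. Exact two-sided sign-flip permutation tests over the 9 rats gave p = 0.0078 for Sgk1 and p = 0.0039 for Tsc22d3, the smallest this test can give. For Tsc22d3 the count of rats and this p rest in part on depth. GR13, GR15 and GR44 had 3651, 6907 and 7993 crypt-leaning UMIs of all genes, and GR41 had 24697 with a surface-leaning level of 0.191. In these rats none would be likely even at the surface-leaning level, and in GR23, with 18780, none would not be rare. Both genes were also low in nuclei with too few list UMIs to be placed. Sgk1 averaged 0.520, 0.381 and 0.119 there in sham, placebo and PL8177, and Tsc22d3 averaged 0.152, 0.205 and 0.0941.

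Zbtb16 ran the other way. It averaged 0.0787 per 10000 in surface-leaning and 1.15 in crypt-leaning nuclei, on 100 and 39 UMIs, and was higher in crypt-leaning nuclei in 8 of 9 rats (exact sign-flip permutation p = 0.0078). Zbtb16 was not confined to that range. In nuclei with too few list UMIs to be placed it averaged 0.275 in sham, 0.998 in placebo and 0.704 in PL8177, on 5, 39 and 20 UMIs. Per1 had 57 UMIs in surface-leaning and 0 in crypt-leaning nuclei, which allows a crypt-leaning level of up to 0.0776 per 10000 against a surface-leaning mean of 0.0376. Its p of 0.0156 in the exact permutation test is therefore no sign of a difference at this depth.

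For Fkbp5 no such gradient was detected. It averaged 0.221 in surface-leaning and 0.255 in crypt-leaning nuclei, on 306 and 16 UMIs. It was higher in the surface-leaning range in 5 of 9 rats (exact sign-flip permutation p = 0.723). GR22 held 11 of the 16 crypt-leaning UMIs, so a moderate gradient could have been missed. Klf9 averaged 0.540 and 0.401 (exact permutation p = 0.355). These are 6 tests over rats with unadjusted p values.

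A fit of all genes outside the 2 lists, added after these values were seen, used edgeR with the rat as a block. With the filter on low counts Sgk1 was the member tested, at a log2 fold change of 3.44 (SE 0.32, adjusted p = 7.6e-25). Of 3213 genes, 19% were called higher and 9.99% lower in surface-leaning nuclei, with a log2 fold change of over 1 in size. Without the filter, where 13.3% of 16310 genes were called higher and 5.21% lower, Tsc22d3 was at 4.15 (SE 0.63), Zbtb16 at -3.02 (SE 0.33) and Klf9 at 1.36 (SE 0.36), all called by edgeR. Klf9 passed the filter once rat GR23 was left out and was then at 0.72 (SE 0.39, adjusted p = 0.11 in edgeR), so its call rests on the setting. Fkbp5 was at 0.13 (SE 0.39, adjusted p = 0.889 in edgeR), with a 95% interval from -0.63 to 0.90.

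**Figure D3:**
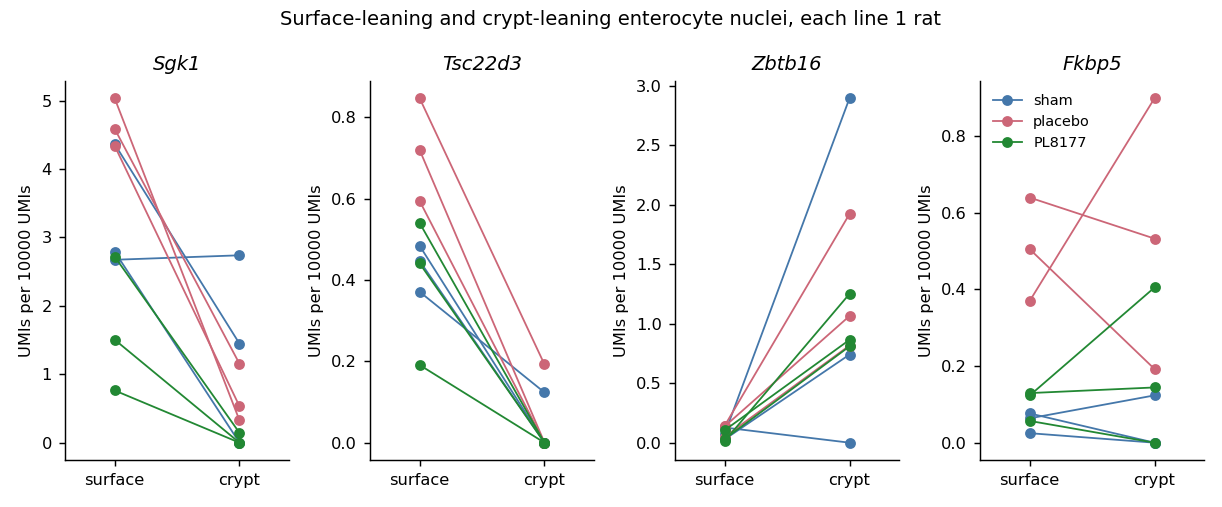
Levels of 4 members (y axes, UMIs per 10000 UMIs) in surface-leaning and crypt-leaning enterocyte nuclei (x axis), with a line for each of 9 rats coloured by treatment. Lines fall to the crypt-leaning side for Sgk1 in 8 rats and for Tsc22d3 in 9, rise for Zbtb16 in 8, and go both ways for Fkbp5, whose placebo rats lie at the top of the surface-leaning range.

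The treatment pattern was then read within the surface-leaning nuclei, which made up 70.3% to 80.7% of the enterocyte nuclei of a sham rat, 47.7% to 75.7% of a placebo rat and 72.7% to 81.3% of a PL8177 rat. Fkbp5 was at 0.0549 ± 0.0269 in sham, 0.505 ± 0.135 in placebo and 0.103 ± 0.0402 in PL8177 (SD, n = 3). The 13 crypt-leaning Fkbp5 UMIs of placebo rats, beside 1 in sham and 2 in PL8177, gave a mean of 0.541 per 10000 there. GR22 held 11 of the 13, at 0.899 per 10000, and GR23 and GR24 had 1 each, at 0.532 and 0.192.

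For Tsc22d3 the placebo rats did not overlap the others in this range, as they did in all enterocytes. Surface-leaning levels were 0.371 to 0.484 in sham, 0.594 to 0.846 in placebo and 0.191 to 0.540 in PL8177, so every placebo rat was above all others. The gap was narrow and rested on few counts, with 13 UMIs in GR23 at 0.594 and 38 in GR44 at 0.540. Sgk1 in this range was 2.67 to 4.37 in sham, 4.34 to 5.03 in placebo and 0.764 to 2.72 in PL8177. For PL8177 against placebo the exact permutation p was 0.1 for each gene, the smallest possible with 3 rats a group. Among 9404 genes, 10.8% were lower in every sham and 10.2% in every PL8177 rat than in every placebo rat within surface-leaning nuclei.

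T cells give the same genes a second setting, though a thin one. Pooled over rats, Fkbp5 had 22 UMIs in sham, 25 in placebo and 3 in PL8177 T cell nuclei, and 21 of the sham UMIs came from rat GR12 and 19 of the placebo UMIs from GR23. The pooled level was 0.817 per 10000 in sham (95% Poisson interval 0.512 to 1.24, counting error only), 0.275 in placebo (0.178 to 0.406) and 0.286 in PL8177 (0.0590 to 0.836). Without GR23 the placebo level was 0.463 (0.170 to 1.01). Single sham rats were at 0.894, 1.239 and 0, placebo rats at 0, 0.244 and 0.791, and PL8177 rats at 0.832, 0.166 and 0, and the groups overlapped throughout. Exact permutation tests gave p = 0.5 for sham against placebo and p = 1 for PL8177 against placebo, and p = 0.6 and p = 1 without GR23, where 0.2 is the smallest possible. The placebo excess seen in enterocytes was thus not detectable in T cell nuclei at this depth, and the difference between the cell types was not tested, since the enterocyte contrast chose the gene. Among T cell nuclei with T cell marker UMIs, the pooled level was 0.965 in sham, 0.323 in placebo and 0.811 in PL8177, on 20, 3 and 3 UMIs.

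Sgk1 in T cell nuclei had 3 UMIs in sham, 209 in placebo and 4 in PL8177, and 202 of the placebo UMIs were from GR23, whose T cell nuclei carried enterocyte markers. Without that rat the pooled placebo level fell from 2.30 to 0.541 per 10000. Tsc22d3 had 3, 33 and 0 UMIs, with 26 of the placebo UMIs from GR23. The part of enterocyte RNA in these counts was not tested. No member passed the T cell filter on low counts, and 0 of the 1828 genes that did (0%) were called in any of the 3 comparisons by edgeR or DESeq2, with a fold limit of 1.5 on the log2 scale. At an unadjusted p below 0.05 there were 90, 18 and 22 with edgeR. Without the filter Sgk1 was called by edgeR in sham against placebo, at -4.21 (SE 1.11, adjusted p = 0.0405), where sham rats had 3, 0 and 0 UMIs and placebo rats 1, 202 and 6. Without GR23 it was at -2.10 (SE 1.31, adjusted p = 0.882 in edgeR) and was not called.

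Compared within rats, Sgk1 was lower in T cells than in enterocytes. It averaged 0.540 per 10000 in T cell and 2.84 in enterocyte nuclei and was lower in T cells in 8 of 9 rats (exact sign-flip permutation p = 0.0078), and in 7 of 8 without GR23 (exact permutation p = 0.0156). edgeR with the rat as a block gave a log2 fold change of -2.64 (SE 0.47, adjusted p = 0.000163), and -3.62 (SE 0.34) without GR23. Of 5194 genes tested, 25.9% were called with a log2 fold change of over 1 in size. Tsc22d3 was at -1.06 (SE 0.45, adjusted p = 0.0664 in edgeR), and at -1.46 (SE 0.47, adjusted p = 0.0044 in edgeR) without GR23. Restricted to T cell nuclei with T cell marker UMIs, Tsc22d3 was at -2.12 (SE 0.61, adjusted p = 0.00115 in edgeR). Klf9 was at -0.52 (SE 0.39, adjusted p = 0.32 in edgeR), and at -0.71 (SE 0.38, adjusted p = 0.101 in edgeR) without GR23.

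Fkbp5 averaged 0.463 in T cell and 0.237 in enterocyte nuclei and was higher in T cells in 5 of 9 rats (exact sign-flip permutation p = 0.273, and 0.18 without GR23). Zbtb16, with 0.306 and 0.169, was likewise higher in 5 of 9 (exact permutation p = 0.191, and 0.133 without GR23). Among other pathway genes, Nr3c2 was called lower in T cells at -2.03, and at -2.35 without GR23. Called lower were also 4 of the 14 tested glucocorticoid-induced targets, Dusp1, Errfi1, Glul and Foxo3, a share near the 25.9% of all genes. Of 11 chaperones and immunophilins tested, Hsp90ab1 was called higher in T cells at 1.26 and Dnajb1 lower at -1.45. None of 10 coregulators was called. Of 8 clock genes 3 were called, Cry2, Arntl and Npas2, all lower. Of 10 kinases and partners of Sgk1, 5 were called, Nedd4l, Ndrg1, Ndrg2 and Foxo3 lower and Wnk1 higher. Without GR23, where 38% of 5129 genes were called, the calls were 3 of 10 chaperones, 0 of 10 coregulators, 7 of 12 induced targets, 4 of 8 clock genes and 7 of 9 kinases and partners.

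**Figure D4:**
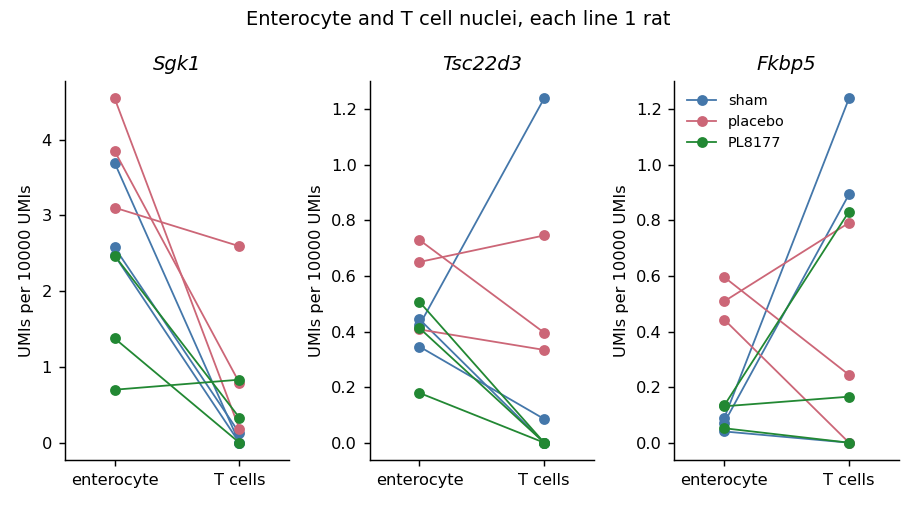
Levels of Sgk1, Tsc22d3 and Fkbp5 (y axes, UMIs per 10000 UMIs) in enterocyte and T cell nuclei (x axis), with a line for each of 9 rats coloured by treatment. Sgk1 falls toward T cells in 8 rats, and Fkbp5 rises in 5 and falls in 4.

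The genes whose enterocyte levels ran most closely with Fkbp5 over the 9 rats were Tex9, Scfd2, Tpr, Akr1c13 and Slc44a3. Pearson correlations of log2 CPM were 0.963, 0.941, 0.939, 0.937 and 0.936, among 9423 genes, of which 23 reached 0.9 and 12 fell to -0.9 or below. These are descriptions over rats that share libraries and treatment groups, and Fkbp5 itself was chosen for its placebo level. Akr1c13, an aldo-keto reductase gene, averaged 1.66 ± 0.435 per 10000 in sham rats, 3.44 ± 0.677 in placebo rats and 1.74 ± 0.475 in PL8177 rats (SD, n = 3). Tpr, which encodes a nuclear pore protein, was at 1.02 ± 0.101, 1.69 ± 0.235 and 1.12 ± 0.0585. The other members followed Fkbp5 less closely, with 0.431 for Zbtb16, 0.286 for Sgk1, 0.22 for Tsc22d3 and 0.029 for Klf9.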

How the data were processed

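The authors deposited UMI counts per gene and nucleus for T cells and enterocytes of each treatment, made with Cell Ranger 6.0.1 on Rnor 6.0 with introns, CellBender and Seurat 4.0.3. Nuclei had to show 200 genes and less than 5% mitochondrial reads, and genes had to occur in 3 cells. No further filter on nuclei was applied and no doublet caller was run. The last line of the placebo T cell counts is incomplete and was left out, so T cells were compared over 15108 of 17388 genes. Counts were summed per rat. edgeR 4.0.16 (TMM, filterByExpr, glmQLFTest, Benjamini-Hochberg) fitted all 9 rats per cell type; DESeq2 1.42.0 was the alternative. T cells and enterocytes, and the 2 ranges, were compared with the rat as a block. This assumes that the same tag means the same animal, which the labels do not state. Correlations of same-rat deviations ran from -0.0272 to 0.421, and 7 of 9 T cell libraries correlated best with the enterocytes of their own rat. Nothing further states how animals were handled, so p values measure the spread between these rats. Sign-flip and 3 against 3 permutation tests were exact and two-sided, with no adjustment over the members. The fits were tested on simulated data.

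The members and lists were chosen with earlier results of these data known. From each list the 4 genes with the most enterocyte UMIs and any gene called in an enterocyte comparison could be named, and a selection is printed. Fkbp4, as the partner of Fkbp5, and T cell calls were named after their values were seen.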

Additional observations from a re-analysis of the deposited data

How the results depend on the processing

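Without each rat in turn, the genes called by edgeR numbered 0 to 8 for sham against placebo in enterocytes, 0 to 2 for PL8177 against sham, 0 to 1 for PL8177 against sham in T cells, 1022 to 1948 for T cells against enterocytes, and 869 to 1175 for surface-leaning against crypt-leaning nuclei. There, 4 to 5 of 6 members, Per1 included, were under p = 0.05 in the exact sign-flip permutation test. DESeq2 called 107, 50 and 4 enterocyte genes for sham and PL8177 against placebo and PL8177 against sham. Without the filter on low counts edgeR called 51, 8 and 10 of them, 33 and 4 T cell genes against placebo (0 and 0 without GR23 as well, an alternative added after seeing the data, with 1 for PL8177 against sham), 3675 genes between cell types and 3018 between the ranges. Sham against placebo in enterocytes gave 5 calls without TMM and 8 after thinning. Without the replicate block 1179 genes differed between cell types, beside 1347, and Tsc22d3 was then called at -1.21 (adjusted p = 0.0334, edgeR). The cause of these shifts was not tested.

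Without each rat, Fkbp5 lay between -2.88 and -2.55 in sham and between -2.16 and -1.79 in PL8177 against placebo, and thinning moved the latter to -2.62. Directions turned for Sgk1 in sham against placebo after thinning (0.15), Klf9 there without GR22 (0.24, leave-one-out range -0.53 to 0.24), Tsc22d3 in PL8177 against sham without GR41 (0.23, range -0.39 to 0.23), and Zbtb16 there without GR15, GR41 or GR44 (0.38, 0.17, 0.014, range -1.03 to 0.38) or with nuclei of at least 500 genes (0.094). Surface minus crypt differences turned for Fkbp5 without GR22 (0.0277, range -0.0775 to 0.0277) and with other surface genes added (0.0816), and for Klf9 with at least 5 list UMIs (-0.733). Of the member values under alternatives, 382 kept direction and side of the threshold and 10 turned direction. A further 9 became stronger, and 1 changed in another way. Leaving out GR44 or adding surface genes brought Klf9 to p = 0.0078 and 0.0039 in the exact permutation test. In T cells, and among crypt-leaning nuclei, UMI numbers limit what could be detected.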
